A study of Mus musculus with 4 samples.

Results

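The genes described here are hypoxia-inducible genes outside glycolysis: Hif1a, Epas1, Bhlhe40, Vegfa, Adm, Car9, Bnip3, Ddit4, Ndrg1 and Ankrd37. They were chosen by name, with earlier results of these data known. Every probe of the array that carries 1 of these names and is not a control was used. That gave 10 of the 34816 genes or transcripts on the array and 16 of its 55681 probes. All 16 probes were well above background on all 4 arrays.

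The study set out to learn what active AKT, a growth factor kinase, does while fibroblasts are being turned into induced pluripotent stem cells, and RNA was profiled at 8 days postinfection (dpi) on 4 single-colour arrays, 1 per group. All groups were mouse embryonic fibroblasts (MEFs) from male E13.5 embryos of an Oct4-EGFP transgenic line, several embryos being mixed per the methods, and all received retroviruses for Oct4, Sox2 and Klf4 (OSK). OSKA cells also received AKT-MER, in which myristoylated AKT is joined to an altered estrogen receptor so that 4-hydroxytamoxifen (4OHT) activates it. From 3 dpi the cells were given 4OHT or the mock treatment, which was ethanol per the methods, so the groups were OSK − 4OHT, OSK + 4OHT, OSKA − 4OHT (AKT-nonactivated cells) and OSKA + 4OHT (AKT-activated cells). The free-text description of the last array is worded as if AKT-MER had not been activated, which goes against its title and the design text, and the title was used. No group was a hypoxia treatment, and oxygen and HIF protein are not part of these data.

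Cells sense oxygen through hypoxia-inducible factors (HIFs). The alpha subunits, made from Hif1a and Epas1, are hydroxylated by prolyl hydroxylases that use oxygen, iron and alpha-ketoglutarate, and the VHL ubiquitin ligase then marks them for degradation. When hydroxylation stops, the alpha subunit pairs with ARNT and binds a short core motif in the DNA of its target genes. AKT signalling through mTORC1 is also known to raise HIF-1 alpha protein, which the arrays do not measure.

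A level is the log2 intensity of a probe minus the 75th percentile of its array, and a difference is the level on one array minus that on another. The 75th percentile of intensity was 376.7 to 461.9 on the 4 arrays, and 52.4% to 55.4% of the spots that are not controls were well above background. The fibroblast markers were measured in 10 of 10 genes on every array, with a mean level of 5.61 to 5.92. Macrophage and blood markers were measured in 6 of 7 genes on every array as well, among them Csf1r and Cd68, with mean levels of 3.69 in OSK − 4OHT, 4.12 in OSK + 4OHT, 4.10 in OSKA − 4OHT and 3.93 in OSKA + 4OHT cells. Endothelial markers were measured in 4 of 8 genes on all 4 arrays, and Cdh5, Tie1 and Emcn on none. In such bulk samples, fewer cells of a type and less RNA per cell cannot be told apart. With 1 array per group there is no replicate and no test. The error given with a difference comes from the error model of the scanner software and covers the measurement on the arrays only, and the position on the slide and the group cannot be told apart.

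The 10 genes did not move one way in AKT-activated cells. With 4OHT in OSKA cells, Car9, which encodes an acid-regulating enzyme of the cell surface, was 2.21-fold higher, and Ddit4 (1.83-fold) and Vegfa (1.48-fold) were higher too, as were Bnip3 and Ankrd37 (a log2 difference of 0.59 each). Adm (0.634-fold), Ndrg1 (0.668-fold), Epas1 (0.813-fold) and Bhlhe40 (0.837-fold) were lower. Hif1a itself was 1.16-fold higher, a log2 difference of 0.21 with an error of 0.20.

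A 2-fold difference was used as the threshold. At that size, 1 of the 10 genes (Car9) passed with 4OHT in OSKA cells, where 2.91% of all genes measured on both arrays did. In OSKA + 4OHT against OSK + 4OHT cells 2 of 10 passed (Ddit4 and Car9), against 3.04% of all genes. With 4OHT in OSK cells none passed (0.886% of all genes), and in OSKA against OSK cells without 4OHT none passed (2.02%). At 1.5-fold, 5 of 10 passed with 4OHT in OSKA cells, where 9.69% of all genes did. These were Car9, Ddit4, Bnip3 and Ankrd37 on the higher side and Adm on the lower. Bnip3 and Ankrd37 (0.59 each) were just past that size, and Vegfa (0.57) and Ndrg1 (−0.58) just short of it. With AKT-MER in the presence of 4OHT 7 of 10 passed (10.6% of all genes), 4 higher (Hif1a, Vegfa, Ddit4 and Car9) and 3 lower (Epas1, Adm and Ndrg1). With 4OHT in OSK cells 1 of 10 passed (Hif1a, lower, against 5.95% of all genes), and with AKT-MER in the absence of 4OHT none did (9.65%). These counts depended on the processing. With normexp background correction 3 passed with 4OHT in OSKA cells (4.07% of all genes), Bnip3 (0.57) and Ankrd37 (0.51) no longer among them. With the mean of all probes of a gene, 5 passed with AKT-MER in the presence of 4OHT, without Hif1a (0.44) and Epas1 (−0.47), 6 with 4OHT in OSKA cells, with Vegfa added, and none with 4OHT in OSK cells. Scaled to the spike-in spots, 4 passed with AKT-MER in the absence of 4OHT, all lower (Epas1 −0.97, Bhlhe40 −0.96, Vegfa −0.64 and Ankrd37 −0.60), where 29.4% of all genes passed. With that scaling 2 passed with 4OHT in OSK cells (Hif1a and Vegfa, lower, against 12.5% of all genes) and 8 with AKT-MER in the presence of 4OHT, Bhlhe40 added on the lower side (12.5%). The comparisons share arrays, so their values are not independent of each other: both comparisons with the largest counts contain the AKT-activated array.

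The median difference over the 10 genes was 0.39 with 4OHT in OSKA cells, beside −0.03 over all 20300 genes measured there. It was 0.31 with AKT-MER in the presence of 4OHT (−0.05 over all genes), −0.03 with 4OHT in OSK cells (−0.00 over all genes) and −0.09 with AKT-MER in its absence (−0.02 over all genes). Without Car9, an alternative chosen after seeing the data, the first median was 0.21. The level in AKT-activated cells was the highest of the 4 arrays for 6 of the genes (Hif1a, Vegfa, Car9, Bnip3, Ddit4 and Ankrd37) and the lowest for the other 4 (Epas1, Bhlhe40, Adm and Ndrg1) at the brightest probe. Hif1a was the highest by only 0.10, below the error of 0.20 of its differences, and by 0.04 with the mean of all probes. Of all 19540 genes measured on 4 arrays, the AKT-activated array was highest for 27.3% and lowest for 37.5%. Scaling to the spike-in spots set the OSK − 4OHT array higher against the other 3, so that the median of all genes moved to −0.32 with 4OHT in OSK cells and to −0.46 with AKT-MER in the absence of 4OHT. With that scaling the AKT-activated array was the highest for 4 of the genes (Car9, Ddit4, Bnip3 and Ankrd37, the last by 0.00), between the others for Hif1a and Vegfa (−0.33 and −0.06 from OSK − 4OHT), and the lowest for the same 4, against 8.67% and 48.6% of all genes. Under the other settings it was highest for 6 and lowest for 4.

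**Figure D1:**
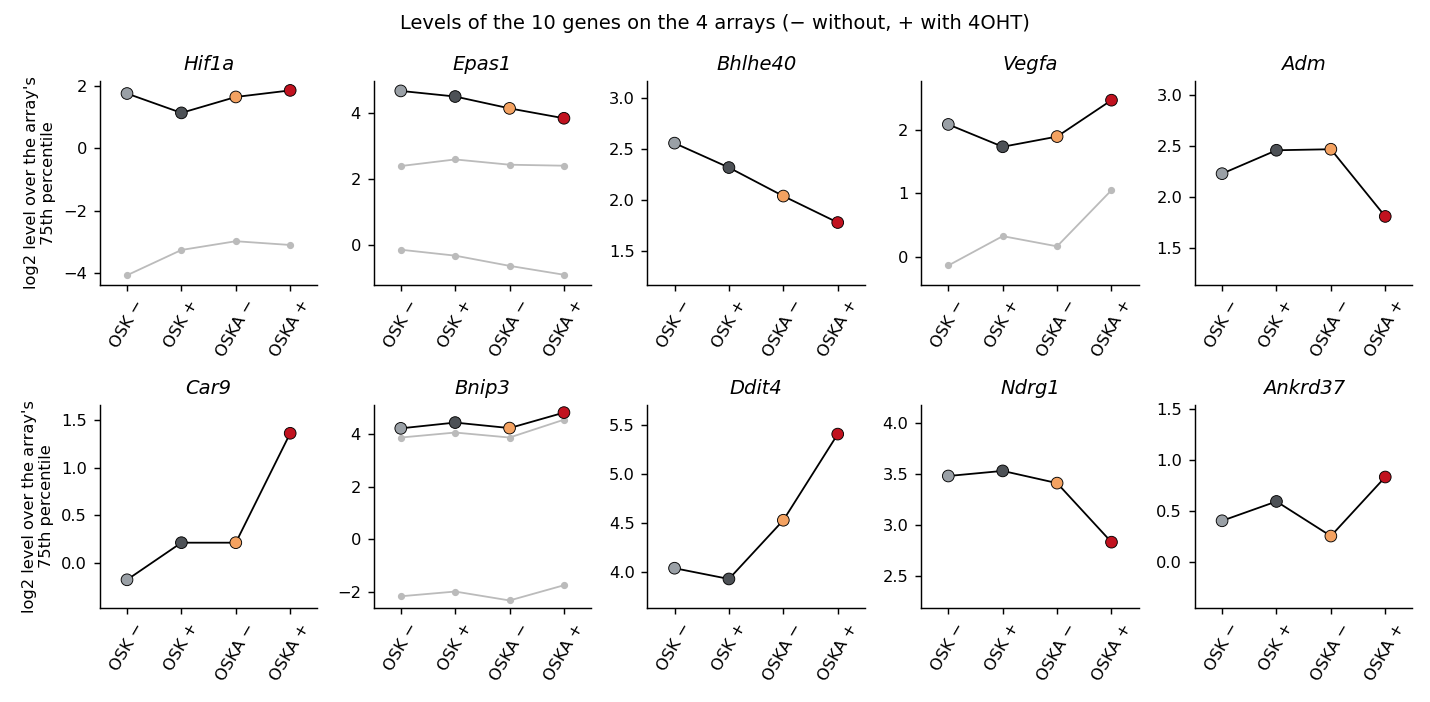
Level of each of the 10 genes (y axis, log2 intensity over the array's 75th percentile, each panel on its own scale) on the 4 arrays, with − for without and + for with 4OHT. Coloured points are the brightest probe and grey points the other probes of a gene, lines only join the arrays, and the OSKA + 4OHT point is the top one of the coloured points in 6 panels and the bottom one in 4.

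The letters to which HIF binds were looked for before the transcription start of each gene, in the 250 bases upstream of the RefSeq start (build GRCm38.p6). An entry was found for 7 of the 10 genes, and Epas1, Ndrg1 and Bhlhe40 had no entry in the set of upstream sequences used here. The core motif was searched as ACGTG and as GCGTG on both strands, and the palindrome CACGTG, which many other helix-loop-helix factors bind, contains ACGTG on both. ACGTG stood in a window of 6 of the 7 genes (Hif1a, Vegfa, Car9, Bnip3, Ddit4 and Ankrd37). That was 6 of their 8 windows, beside 16.6% of all 32851 windows. GCGTG stood in a window of 5 of the 7 (Vegfa, Adm, Bnip3, Ddit4 and Ankrd37). That was 5 of the 8 windows, beside 28.2% of all windows. CACGTG stood in those of Hif1a and Bnip3, 2 of the 8 windows, and in 6.02% of all. Vegfa has more than 1 entry, and only that of a downstream start held the letters. The window of its upstream start held neither ACGTG nor GCGTG. A match is a description of the sequence and shows no binding.

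The windows of the 5 genes that differed at least 1.5-fold with 4OHT in OSKA cells are printed here. They run from 5′ to 3′ on the strand of the gene, with ACGTG or its reverse complement CACGT in capitals. Adm is the only lower gene among them, and whether the letters go with the direction of a gene was not tested. Car9 lies at chr4:43506776-43507025 on the plus strand, with the motif on the minus strand 18 to 14 bases before the start. Ddit4 lies at chr10:59951771-59952020 on the minus strand, with the motif 187 to 183 bases before the start. Bnip3 lies at chr7:138909507-138909756 on the minus strand, and its CACGTG spans 108 to 103 bases before the start. Ankrd37 lies at chr8:45999851-46000100 on the minus strand, with motifs 241 to 237 and 6 to 2 bases before the start. Adm lies at chr7:110627407-110627656 on the plus strand and holds no ACGTG but GCGTG on the minus strand, 90 to 86 and 54 to 50 bases before the start.
Car9: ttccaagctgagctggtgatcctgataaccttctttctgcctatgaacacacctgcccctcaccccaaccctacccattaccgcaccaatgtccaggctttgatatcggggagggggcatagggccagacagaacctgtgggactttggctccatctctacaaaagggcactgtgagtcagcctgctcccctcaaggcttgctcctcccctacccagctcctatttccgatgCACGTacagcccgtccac
Ddit4: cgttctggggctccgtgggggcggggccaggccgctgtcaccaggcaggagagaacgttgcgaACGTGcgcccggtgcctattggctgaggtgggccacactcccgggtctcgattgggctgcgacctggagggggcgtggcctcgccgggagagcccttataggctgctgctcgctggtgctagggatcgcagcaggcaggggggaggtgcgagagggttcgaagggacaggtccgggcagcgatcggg
Bnip3: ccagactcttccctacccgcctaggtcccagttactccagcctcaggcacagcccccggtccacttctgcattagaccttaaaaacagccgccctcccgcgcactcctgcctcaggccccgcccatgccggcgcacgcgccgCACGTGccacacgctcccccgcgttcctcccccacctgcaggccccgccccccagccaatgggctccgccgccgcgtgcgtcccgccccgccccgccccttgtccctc
Ankrd37: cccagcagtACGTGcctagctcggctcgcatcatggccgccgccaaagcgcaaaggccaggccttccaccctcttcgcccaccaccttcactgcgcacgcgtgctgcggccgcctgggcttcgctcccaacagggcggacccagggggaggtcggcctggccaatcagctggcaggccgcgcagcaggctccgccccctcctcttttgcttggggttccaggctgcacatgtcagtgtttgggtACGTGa
Adm: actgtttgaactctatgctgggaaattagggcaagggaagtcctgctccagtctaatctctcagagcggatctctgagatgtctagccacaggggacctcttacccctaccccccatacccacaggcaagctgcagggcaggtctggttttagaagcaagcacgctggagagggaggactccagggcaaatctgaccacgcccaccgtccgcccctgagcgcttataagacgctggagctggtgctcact

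Among the transcription factors, Hif1a encodes the alpha subunit of HIF-1, found in most cells. Its brightest probe (chromosome 12, 75047269 to 75047329 in NCBI37, the build of the array's coordinates) lay at 1.76 in OSK − 4OHT, 1.14 in OSK + 4OHT, 1.65 in OSKA − 4OHT and 1.86 in OSKA + 4OHT cells. The OSK + 4OHT array stood below the other 3, which spanned 0.21. Scaled to the spike-in spots, AKT-MER in the absence of 4OHT gave −0.55. The differences were −0.62 with 4OHT in OSK cells, 0.21 with 4OHT in OSKA cells, −0.11 with AKT-MER in the absence of 4OHT and 0.72 in its presence, each with an error of 0.20. A second, dim probe under the name Hif1a (chromosome 12, 75033965 to 75034024) lay at −4.06, −3.25, −2.97 and −3.09 on the arrays in the same order. There the lowest array was OSK − 4OHT, and the 4OHT differences were 0.81 in OSK and −0.12 in OSKA cells, so the direction of Hif1a depended on the probe.

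Epas1 encodes HIF-2 alpha, the subunit best known from endothelial and kidney cells. Its brightest probe (chromosome 17, 87232615 to 87232674) lay at 4.67, 4.50, 4.14 and 3.84 in OSK − 4OHT, OSK + 4OHT, OSKA − 4OHT and OSKA + 4OHT cells. Both OSKA arrays were below both OSK arrays, with −0.53 without 4OHT and −0.66 with it, while 4OHT gave −0.17 in OSK and −0.30 in OSKA cells (error 0.20). A dimmer probe showed the same order of arrays (−0.15, −0.33, −0.64 and −0.91), but a further probe spanned only 0.20 over the 4 arrays (2.39, 2.59, 2.43 and 2.40).

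Bhlhe40 encodes a helix-loop-helix repressor of the circadian and hypoxia responses. Its probe (chromosome 6, 108616309 to 108616368) lay at 2.56, 2.32, 2.04 and 1.78 in that order of arrays. As for Epas1, the OSKA arrays were the lower pair both without 4OHT (−0.52) and with it (−0.54), and the 4OHT differences were nearly equal in OSK (−0.24) and OSKA cells (−0.26). The difference between these 4OHT effects was −0.02 with an error of 0.29, against −0.13 for Epas1. With spike-in scaling, the 4OHT differences in OSK and OSKA cells were −0.55 and −0.25 for Bhlhe40 and −0.48 and −0.29 for Epas1, so that neither the near equality for Bhlhe40 nor the sign for Epas1 held.

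Vegfa and Adm encode secreted factors of blood vessels. Vegfa, the main growth factor for endothelial cells, was measured at its brightest probe (chromosome 17, 46154387 to 46154446) at 2.08 in OSK − 4OHT, 1.73 in OSK + 4OHT, 1.89 in OSKA − 4OHT and 2.46 in OSKA + 4OHT cells. At the 75th percentile scaling the AKT-activated array was above the other 3, by 0.57 from OSKA − 4OHT and 0.72 from OSK + 4OHT cells, while 4OHT in OSK cells gave −0.35. A second probe (chromosome 17, 46162376 to 46162435) lay at −0.13, 0.33, 0.17 and 1.05. It too was highest in AKT-activated cells, with 0.88 and 0.72 for the same comparisons, but it was higher and not lower with 4OHT in OSK cells (0.45).

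Adm encodes adrenomedullin, a peptide that widens vessels and is commonly among the genes most raised by hypoxia. Its probe (chromosome 7, 117773088 to 117773147) lay at 2.23, 2.46, 2.47 and 1.81. The other 3 arrays lay within 0.25 of each other, and the AKT-activated array was 0.66 below OSKA − 4OHT and 0.64 below OSK + 4OHT. The 4OHT difference in OSK cells was 0.23, so the 4OHT effect in OSKA cells minus that in OSK cells was −0.89 with an error of 0.29.

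Car9 encodes carbonic anhydrase 9, a membrane enzyme that turns carbon dioxide into bicarbonate outside the cell and a widely used hypoxia marker. Its probe (chromosome 4, 43526518 to 43526577) lay at −0.18 in OSK − 4OHT, 0.21 in OSK + 4OHT, 0.21 in OSKA − 4OHT and 1.36 in OSKA + 4OHT cells. The AKT-activated array stood apart, 1.15 above each of the middle arrays, which in turn were 0.39 above OSK − 4OHT. Scaled to the spike-in spots, these smaller differences were 0.07 with 4OHT in OSK cells and −0.05 with AKT-MER in the absence of 4OHT. The 4OHT effect in OSKA cells exceeded that in OSK cells by 0.76 (error 0.29). No other probe of the array shared a run of 16 letters with it on either strand.

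Bnip3, Ddit4, Ndrg1 and Ankrd37 encode intracellular proteins of the stress response. Bnip3, a mitochondrial outer membrane protein that recruits the autophagy machinery, lay at 4.22, 4.44, 4.23 and 4.82 at its brightest probe (chromosome 7, 146082760 to 146082819). The AKT-activated array was the highest, 0.59 above OSKA − 4OHT and 0.38 above OSK + 4OHT cells, and the lowest arrays, both without 4OHT, differed by 0.00 (−0.44 with spike-in scaling). The other probes gave 0.68 and 0.59 with 4OHT in OSKA cells and 0.19 and 0.18 in OSK cells, so the 3 Bnip3 probes kept the same direction in both.

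Ddit4 encodes REDD1, which is induced by hypoxia and other stresses and restrains mTORC1, the kinase complex downstream of AKT. Its probe (chromosome 10, 59412486 to 59412545) lay at 4.04 in OSK − 4OHT, 3.93 in OSK + 4OHT, 4.53 in OSKA − 4OHT and 5.41 in OSKA + 4OHT cells. The OSK arrays differed by less than the error, AKT-nonactivated cells lay 0.49 above OSK − 4OHT, and AKT-activated cells lay 0.87 above AKT-nonactivated cells. Scaled to the spike-in spots, the second of these differences was 0.05 and the last 0.88. Its difference of 1.48 (2.79-fold) between OSKA + 4OHT and OSK + 4OHT cells was the largest value among the 10 genes, and 0.988% of all genes measured on both arrays had a larger absolute difference. The 4OHT effect in OSKA cells exceeded that in OSK cells by 0.99 (error 0.29), also the largest among the 10 genes at their brightest probe.

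Ndrg1, a stress-induced protein tied to growth arrest and differentiation, lay at 3.48, 3.53, 3.41 and 2.83 (chromosome 15, 66761057 to 66761116). The arrays of cells without activated AKT-MER lay within 0.11 of each other, and the AKT-activated array was 0.58 below OSKA − 4OHT and 0.70 below OSK + 4OHT. Scaled to the spike-in spots, the arrays without activated AKT-MER spanned 0.51, and the AKT-activated array was 0.57 below OSKA − 4OHT. Ankrd37, an ankyrin repeat protein of little-known role that is a HIF-1 target, lay at 0.40, 0.59, 0.25 and 0.83 (chromosome 8, 47082404 to 47082463). Its AKT-activated array was 0.59 above OSKA − 4OHT but only 0.24 above OSK + 4OHT cells, near the error of 0.20.

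**Figure D2:**
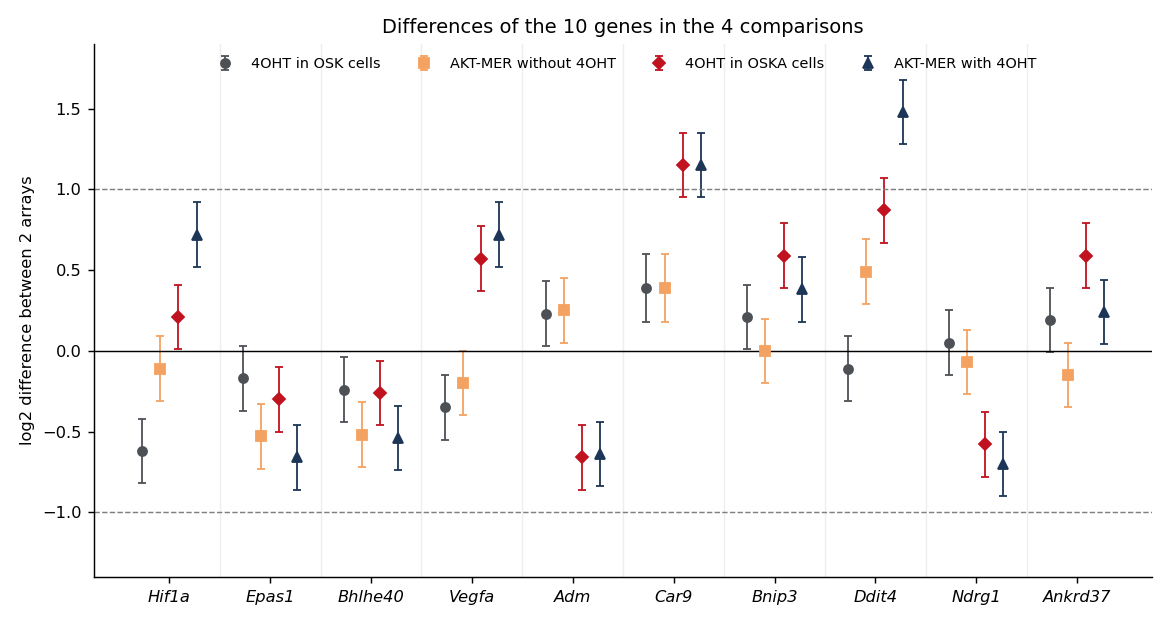
Log2 difference (y axis) of each of the 10 genes (x axis) in the 4 comparisons, with bars for the error of the software, dashed lines at 2-fold and 1 array on each side of a difference. Only Car9 (1.15 in both comparisons with the AKT-activated array) and Ddit4 (1.48) pass the dashed line. Epas1, Bhlhe40, Adm and Ndrg1 are lower in both comparisons with that array.

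OSK cells lack AKT-MER, so the 4OHT difference there shows what 4OHT and the culture gave without it. For Car9 that difference had the same sign as in OSKA cells and was smaller (0.39), and for Bnip3 (0.21) it was about as large as the error of 0.20. For Ankrd37 (0.19), Epas1 (−0.17), Ddit4 (−0.11) and Ndrg1 (0.05) it was within the error. For Hif1a, Vegfa and Adm it had the opposite sign at the brightest probe. Scaled to the spike-in spots instead, the OSK differences of Bnip3, Ankrd37 and Adm were −0.10, −0.12 and −0.08, so their direction in OSK cells depended on the scaling. That scaling gave Car9 0.07, within the error, and Epas1 −0.48, Ddit4 −0.43 and Ndrg1 −0.27, lower by more than it. Bhlhe40 was lower under both scalings (−0.24, and −0.55 with the spike-in spots). Macrophage and blood markers also moved with 4OHT in OSK cells, where 5 of 6 measured genes were higher with a median of 0.56, and with AKT-MER in the absence of 4OHT, where 5 of 6 were higher with a median of 0.52. With 4OHT in OSKA cells 1 of 6 was higher (Adgre1 at 0.08) and 5 were lower, from −0.50 for Itgam to −0.09 for Ptprc, with a median of −0.17. Itgam was the lower gene in OSK cells too (−0.30). Their part in the differences of the 10 genes was not tested.

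**Figure D3:**
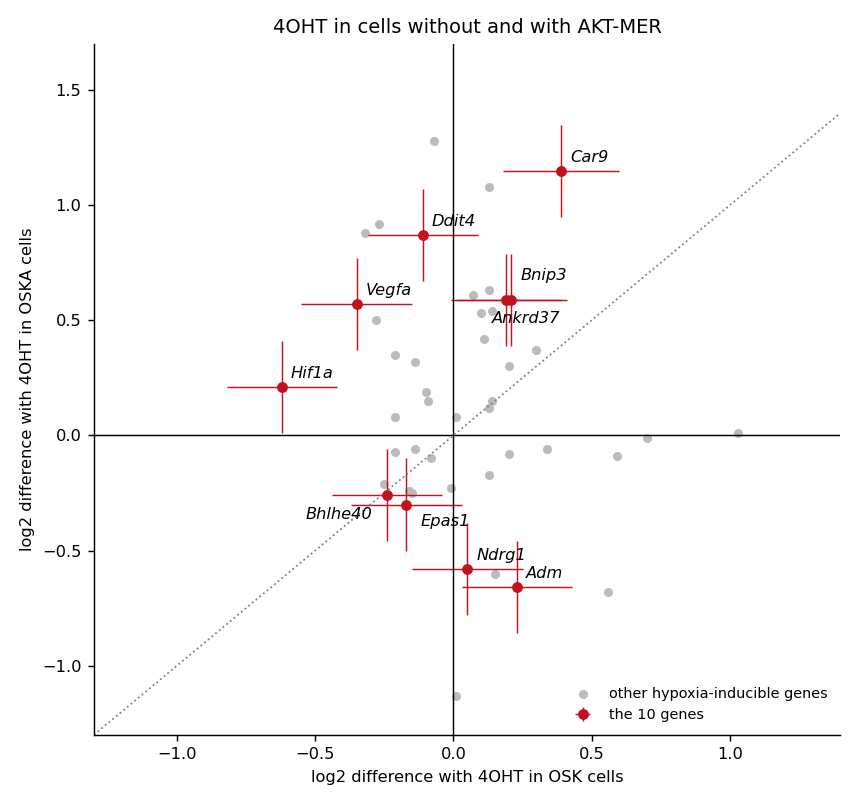
Log2 difference with 4OHT in OSK cells (x axis) and in OSKA cells (y axis) for the 10 genes (red, with bars for the error of the software) and 36 other hypoxia-inducible genes (grey), with a dotted line at equal differences. Car9, Ddit4, Vegfa, Hif1a, Bnip3 and Ankrd37 lie above the dotted line, Ndrg1 and Adm below it, and Epas1 and Bhlhe40 within their bars of it.

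The oxygen-sensing machinery was looked at through 16 genes of HIF partners, hydroxylases and degradation. With 4OHT in OSKA cells all 16 were measured, 14 were higher, where 45.2% of all genes were, and the median was 0.05. Of the higher ones only Egln3 and Vhl (0.44), the ubiquitin ligase subunit, differed by more than their error, and Hif1an, an asparagine hydroxylase of HIF, was lower by more than its error (−0.32). In OSKA + 4OHT against OSK + 4OHT cells 9 of 15 were higher, with a median of 0.02. With 4OHT in OSKA cells only Egln3, a prolyl hydroxylase that is itself a HIF target, passed 2-fold. Its level was 0.81 in OSK − 4OHT, 0.57 in OSK + 4OHT, −0.00 in OSKA − 4OHT and 1.15 in OSKA + 4OHT cells. It was lowest in AKT-nonactivated and highest in AKT-activated cells, with a difference of 1.15 that a second probe also gave (1.15), while against OSK + 4OHT cells it was 0.58 higher.

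Of 40 other hypoxia-inducible genes outside glycolysis, 36 were measured on both OSKA arrays. With 4OHT 21 were higher, the median was 0.10, and 2 passed 2-fold on the higher side and 1 on the lower. The higher ones were Car12 (1.28), a further membrane carbonic anhydrase, and Higd1a (1.08, and 1.07 at another probe), a mitochondrial protein of the respiratory chain. Edn1, which encodes the vessel-narrowing peptide endothelin-1, was lower (−1.13), and lay at −0.59, −0.58, −0.93 and −2.06 on the arrays in the order above. Stc1, a secreted hormone, was well above background in AKT-activated cells only, at least 2.31-fold above OSKA − 4OHT cells. Glycolytic and glucose transport targets of HIF were measured in 19 of 19 genes. Of these 18 were higher, where 45.2% of all genes were, with a median of 0.33. Slc16a3, the lactate exporter, passed 2-fold (1.23). With 4OHT in OSK cells, which lack AKT-MER, 17 of the 19 were higher too, with a median of 0.11 and Slc16a3 at 0.50. In OSKA + 4OHT against OSK + 4OHT cells 15 of 19 were higher, with a median of 0.21. With 4OHT that list thus leaned one way in both cell types, where the 10 genes and the 36 others each held both directions. The lists were not tested against each other.

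The receptors and relatives of the secreted factors were listed for each system, and the systems were not tested against each other. Of 9 other VEGF ligands and receptors, 8 were measured with 4OHT in OSKA cells, 2 were higher and the median was −0.33, beside 0.57 for Vegfa. None passed 2-fold. The largest were Flt1, a VEGF receptor, at −0.86 (−0.87 at another probe), and Pgf, a relative of VEGF, at 0.68. Flt1 lay at 0.78, 1.93, 2.46 and 1.60 on the arrays in the order above, so OSK − 4OHT cells were the lowest, as they were for the mean of the macrophage and blood markers, and Flt1 was higher with 4OHT in OSK cells (1.15).

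In the adrenomedullin system 6 of 7 other genes were measured on both OSKA arrays. All 6 were higher with 4OHT, where 45.2% of all genes were, with a median of 0.95 beside −0.66 for Adm. With AKT-MER in the absence of 4OHT 3 of 5 measured genes were lower (Ackr3 −0.76, Ramp3 −0.70 and Ramp2 −0.63) and 2 higher, with a median of −0.63. In OSKA + 4OHT against OSK + 4OHT cells 5 of 6 were higher, with a median of 0.73. The 3 that passed 2-fold with 4OHT in OSKA cells were Ramp3, Adm2 and Calca. Ramp3 turns the calcitonin-like receptor into an adrenomedullin receptor, and Adm2 and Calca are related peptides. Ramp3 lay at 3.73 in OSK − 4OHT, 3.52 in OSK + 4OHT, 3.03 in OSKA − 4OHT and 4.41 in OSKA + 4OHT cells, a 4OHT difference of 1.37 in OSKA (1.28 at another probe) and of −0.21 in OSK cells. Calca lay at −1.64, −1.53, −1.31 and −0.22, with a difference of 1.08 in OSKA and 0.10 in OSK cells. Adm2 was not well above background in OSK − 4OHT cells and differed by 1.16 between the OSKA arrays. Calcrl, the receptor that pairs with the Ramp proteins, was well above background in AKT-activated cells only, where it was at least 1.36-fold above OSKA − 4OHT cells.

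Of 15 other carbonic anhydrases 12 were measured on both OSKA arrays, 7 of them higher with 4OHT and 5 lower, with a median of 0.27. The lowest values were −0.79 for Car10 (−1.45 at another probe) and −0.67 for Car1. Car14 (2.51, error 0.27), Car6 (1.91, error 0.25) and Car12 (1.28, error 0.22) passed 2-fold. Car14, a membrane form, lay at −2.61, −2.89, −3.72 and −1.21, lowest in AKT-nonactivated and highest in AKT-activated cells. Car6, a secreted form, was well above background in OSKA cells only, at −3.48 without and −1.57 with 4OHT. Car12 lay at −3.06, −3.13, −2.47 and −1.18, highest in AKT-activated cells and also above OSK − 4OHT in OSKA − 4OHT cells (0.59). These 3 probes were dim, and Car12 also belongs to the list of 40 genes above.

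In the REDD1 and TSC to mTORC1 axis, 8 of 14 genes were higher with 4OHT in OSKA cells with a median of 0.03, beside 0.87 for Ddit4, and none passed 2-fold. The largest were Ddit4l, the relative of Ddit4, at 0.58 and Sesn3, another mTORC1 regulator, at 0.51. Among mitophagy receptors and partners 3 of 11 were higher with a median of −0.16, beside 0.59 for Bnip3. Pink1, a kinase that marks damaged mitochondria, gave −0.47. In OSKA + 4OHT against OSK + 4OHT cells 3 of the 14 REDD1 and TSC genes passed 1.5-fold, all higher (Ddit4l 0.92, Sesn3 0.84 and Sesn2 0.73), and Pink1 gave −0.67. The 3 other members of the NDRG family had a median of −0.01, with Ndrg4 at 0.33 (0.61 against OSK + 4OHT cells) and Ndrg3 at −0.02, beside −0.58 for Ndrg1.

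**Figure D4:**
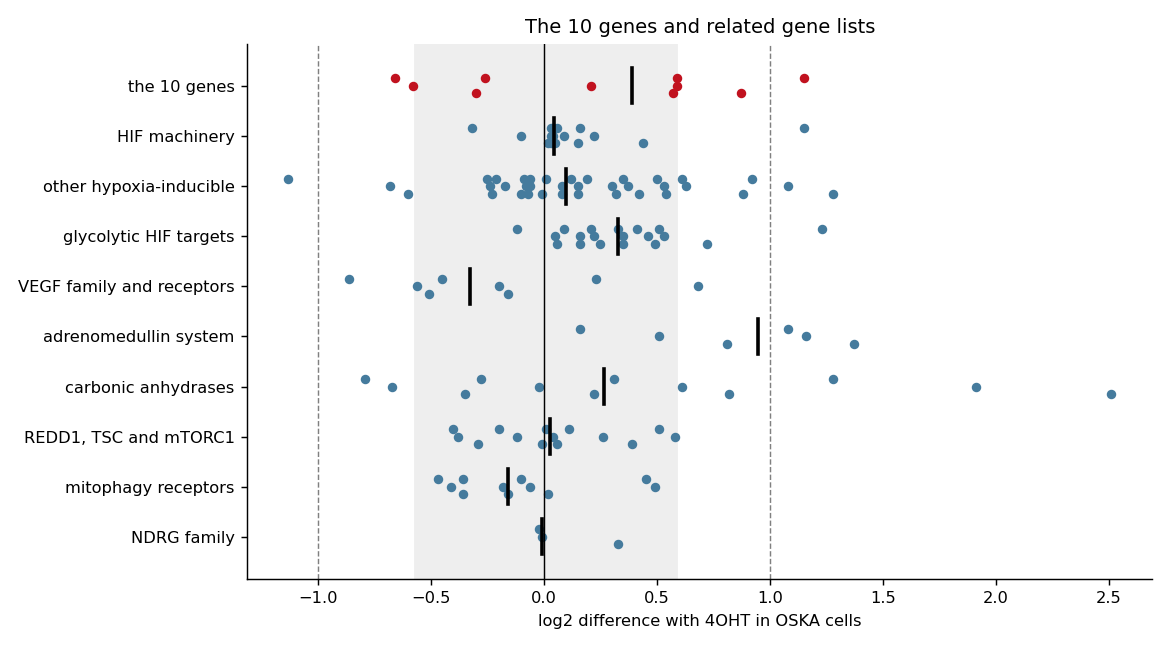
Log2 difference with 4OHT in OSKA cells (x axis) of the 10 genes (red) and of 9 related lists (blue), 1 point per gene measured on both arrays. Black bars are medians, the grey band holds the middle of all genes from the 5th to the 95th percentile (−0.57 to 0.59), and dashed lines mark 2-fold. The adrenomedullin system and the carbonic anhydrases reach furthest to the right.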

How the data were processed

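Gene expression was measured on 4 single-colour Agilent arrays, 1 per group, with groups taken from the sample titles. Cy3-labelled cRNA came from 100 ng of RNA, and Feature Extraction 10.7.3.1 was run with its default settings, per the methods. The deposited scanner files hold an intensity per spot on a linear scale, which that software had corrected for background and spatial trend, together with its error and marks for spots well above background or uneven. The deposited series matrix gives that intensity in rounded form (ratio 0.995 to 1.005), so its values were not normalized between arrays.

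From each log2 intensity the 75th percentile of its array was subtracted, taken over the spots left after controls and marked spots were removed, which dropped 104 to 155 spots per array. No spot was saturated. Repeat spots were averaged, and a probe was taken as measured (well above background) if most of its spots were. Probes were named through RefSeq accessions in a table of GRCm38.p6, which 27509 of 55681 (49.4%) matched, and otherwise kept the name in the files. Coordinates of probes are those of the files (NCBI37), and where in a transcript a probe sits was not analysed here. Promoter windows are from RefSeq on GRCm38.p6. Each gene was represented by its probe with the highest mean level, with its other probes given beside it.

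Differences were taken where both arrays were well above background. With 1 array per group no test was run and no p-value is given, and the number of arrays limits the precision. Where a probe was measured on 1 array of a pair only, the bright value was compared with the lowest measured level of the other array, or with the dim value if that was higher, and is given as "at least N-fold". Among the measured ones of 399 probes with 10 spots each, the median SD over spots was 0.058 to 0.067 (log2) per array.

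The 10 genes and all lists were chosen with earlier results of these data known. The genes named from each other list were those that passed 2-fold with 4OHT in OSKA cells, or otherwise the 2 with the largest absolute difference. Stc1 and Calcrl, measured on 1 array only, Vhl, Hif1an, Sesn2, Car1, Car10 and several marker genes were named besides, after their values were seen, and not every gene these rules select is reported here. Alternatives were normexp with offset 50 in limma 3.58.1 (R 4.3.3), quantile normalization, scaling to 258 spike-in spots, no filter on dim probes, a filter on all 4 arrays, the mean of all probes, the series matrix and a 1.5-fold threshold. The 1.5-fold count and the order of the arrays under each other setting were added after seeing the data. The steps were tested on simulated data in Python 3.11.15 with numpy 2.4.6 and pandas 2.3.3.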

Additional observations from a re-analysis of the deposited data

Results flagged for a closer look

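For 3 of the 10 genes the 4OHT differences in OSKA and OSK cells had opposite signs, each by more than the error of the software. The 4OHT effect in OSKA cells minus that in OSK cells was 0.83 for Hif1a, 0.92 for Vegfa and −0.89 for Adm (log2, error 0.29 each). With 1 array per group the difference between the cell types was not tested. For Hif1a and Vegfa a second probe differed in the OSK comparison, with 0.81 in place of −0.62 for Hif1a and 0.45 in place of −0.35 for Vegfa, and Adm has no second probe. Under spike-in scaling the OSK difference of Adm was −0.08 in place of 0.23, so both its 4OHT differences were then negative.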

How the results depend on the processing

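The members' medians and counts at 2-fold were recomputed under each alternative, and no gene difference of at least 2-fold changed sign. Spike-in scaling moved the median of the 10 genes to −0.35 with 4OHT in OSK cells and to −0.53 with AKT-MER in the absence of 4OHT. It moved the median of all genes to −0.32 and −0.46 in these comparisons, −0.02 with 4OHT in OSKA cells and −0.17 with AKT-MER in the presence of 4OHT. At 1.5-fold the counts of members were 1 with 4OHT in OSK cells, 5 with 4OHT in OSKA cells and 7 with AKT-MER in the presence of 4OHT, in place of 0, 1 and 2. Under the other settings the 2-fold counts of members were the same. Of 280 single-gene values 255 moved by less than the error. The 25 that moved by more came from spike-in scaling (20) and the mean of all probes (5), and 10 values changed sign, 6 and 4 under these settings. None of the sign changes was in a comparison with the AKT-activated array. With the mean of all probes, Hif1a gave 0.09 in place of −0.62 and Vegfa 0.05 in place of −0.35 with 4OHT in OSK cells. Under spike-in scaling Car9 gave −0.05 in place of 0.39 with AKT-MER in the absence of 4OHT.

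The background count of genes at 2-fold depended on the setting. With 4OHT in OSKA cells 591 genes passed (69.0% of them higher), against 206 under normexp (82.5% higher) and 3336 without a filter on dim probes. With 4OHT in OSK cells it was 176 (68.8% higher), against 25 under normexp (84.0% higher), 219 under spike-in scaling (14.6% higher) and 2477 without the filter. With AKT-MER in the absence of 4OHT it was 407 (53.8% higher), against 81, 941 (4.50% higher) and 2992 under normexp, spike-in scaling and no filter. In the presence of 4OHT it was 603 (63.2% higher), against 237, 632 (48.6% higher) and 3146 in the same order of settings. With 1 array per group, neither the variation between cultures nor a position effect on the slide can be measured.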

Other observations

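Markers of other cells in the cultures gave the following values with 4OHT in OSKA cells. Fibroblast markers were higher in 7 of 10 genes (median 0.08), with Lum, a matrix proteoglycan, at 1.13, and lower in 3 (Pdgfrb −0.67, Vim −0.25 and Twist1 −0.21). Epithelial markers had a median of 0.38 over 7 measured genes, 4 higher and 3 lower. The tight junction gene Cldn3 was at 1.52 and the splicing factor Esrp1, which was dim, at −1.27. The median of these markers was −0.55 over 6 genes with AKT-MER in the absence of 4OHT. In OSKA + 4OHT against OSK + 4OHT cells it was −0.28, with 4 of 7 lower. Pluripotent cell markers had a median of 0.37 over 7 of 9 genes with 4OHT in OSKA cells, 4 higher with Fbxo15 at 1.29. The 3 lower ones were Tdgf1 (−0.73), Utf1 (−0.27) and Nanog (−0.19, but 0.11 at another probe). Fbxo15 was lowest in AKT-nonactivated cells, with a difference of −1.4 for AKT-MER in the absence of 4OHT. In OSKA + 4OHT against OSK + 4OHT cells it was only 0.12 higher. The median of the pluripotent cell markers there was 0.07, with 4 higher and 3 lower. Zfp42 and Esrrb were not well above background on any array. Endothelial markers had a median of −0.22 over 4 genes, 1 higher (Kdr 0.23, but −0.24 at another probe) and 3 lower (Vwf −0.62, Tek −0.44 and Pecam1 −0.00). How far any of these moved with the 10 hypoxia-inducible genes was not tested.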
